A study of Rattus norvegicus with 3 samples.

Results

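Transcripts of chemokines and cytokines were read on the 3 arrays of a rat time course, whose labels are 0.0 h, 0.1 h and 1.0 h, with 1 array each. The genes named were Cxcl2, Ccl20, Ccl2, Il6, Cxcl1, Ccl3, Il1b and Tnfsf13, and every probe set whose platform annotation gives only 1 of these symbols was taken. This gave 13 probe sets for 7 of the 8 genes, out of 8740 probe sets other than controls and 4736 genes with a single symbol. Cxcl1 had no probe set named for it alone and was left out. The genes were chosen by their intensity differences between these same arrays, so the differences below are a description and carry no test. Every sample is labelled with both pineal gland and adrenal medulla and with total RNA, and the samples' title numbers run in another order than the times. Strain, sex, age, animal number, treatment and any pooling of the tissues were not stated in the labels. With 1 array per label there was no replicate, no standard error and no test between arrays, and the precision of every value is limited by that number.

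Chemokines are small secreted proteins that draw leukocytes along a gradient to a tissue. CXC chemokines such as Cxcl2 and Cxcl1 attract mainly neutrophils, while CC chemokines attract monocytes, macrophages and lymphocytes. Il6 and Il1b are inflammatory cytokines, and Tnfsf13, also called APRIL, is a ligand of the tumour necrosis factor superfamily that supports B cells and plasma cells. In many cells the genes of these chemokines and of Il6 are switched on through the transcription factor NF-kB, which binds short sites near their starts, and Il6 also has a site for factors that respond to cyclic AMP. The pineal gland is driven by noradrenaline through cyclic AMP, and it holds resident macrophages and vessels beside its pinealocytes.

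Promoter windows, from 250 bases before to 50 bases after the annotated gene start, were given by RefSeq on the rat assembly GRCr8 for 5 of the 7 genes with a probe set. Ccl2 and Ccl3 had no window, so Ccl2, which also had higher values on both later arrays, was not searched for motifs. Of the genes with a window, Cxcl2, Ccl20 and Il6 had higher values on both later arrays, and their windows are shown. That of Tnfsf13 is shown because it had lower values. The windows lie at chr14:17467206-17467505 (minus strand) for Cxcl2, chr9:91836909-91837208 (plus strand) for Ccl20, chr4:5894526-5894825 (minus strand) for Il6 and chr10:54901766-54902065 (minus strand) for Tnfsf13. Each is written 5′ to 3′ in the direction of the gene, and capitals mark matches to the NF-kB consensus decamer on either strand.
Cxcl2: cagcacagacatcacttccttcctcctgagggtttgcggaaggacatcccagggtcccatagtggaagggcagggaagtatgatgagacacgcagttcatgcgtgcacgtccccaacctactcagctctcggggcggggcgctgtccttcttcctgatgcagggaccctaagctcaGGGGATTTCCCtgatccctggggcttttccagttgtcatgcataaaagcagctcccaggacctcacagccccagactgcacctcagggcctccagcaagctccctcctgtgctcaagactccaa
Ccl20: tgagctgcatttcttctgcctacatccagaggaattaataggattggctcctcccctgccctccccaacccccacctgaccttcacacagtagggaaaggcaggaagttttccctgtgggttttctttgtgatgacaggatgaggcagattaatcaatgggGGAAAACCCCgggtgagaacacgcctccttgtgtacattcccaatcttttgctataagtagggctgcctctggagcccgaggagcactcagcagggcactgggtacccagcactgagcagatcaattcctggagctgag
Il6: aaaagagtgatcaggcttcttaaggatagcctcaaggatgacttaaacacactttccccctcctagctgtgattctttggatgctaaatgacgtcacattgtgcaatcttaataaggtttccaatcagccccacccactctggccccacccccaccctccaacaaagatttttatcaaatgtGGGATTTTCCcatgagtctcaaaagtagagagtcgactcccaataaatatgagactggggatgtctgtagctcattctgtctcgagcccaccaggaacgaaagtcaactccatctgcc
Tnfsf13: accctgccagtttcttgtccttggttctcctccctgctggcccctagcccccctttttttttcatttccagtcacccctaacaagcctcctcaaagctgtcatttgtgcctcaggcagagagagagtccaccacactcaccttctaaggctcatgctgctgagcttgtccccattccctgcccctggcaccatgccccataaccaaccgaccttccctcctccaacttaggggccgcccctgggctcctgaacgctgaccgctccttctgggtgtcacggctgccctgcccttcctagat

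The NF-kB consensus decamer matched in the windows of Cxcl2, Ccl20 and Il6, and not in those of Il1b and Tnfsf13. In Cxcl2 there were 2 overlapping matches, whose first bases lay at -74 and -73 with the annotated start counted as 0. In Ccl20 the match began at -89, on the strand opposite to the gene, and in Il6 it began at -68. Of 33469 rat promoter windows of the same length, 7.51% held the decamer on either strand. The cyclic AMP response element, TGACGTCA, stood in the Il6 window alone among these 5 genes, at -162, and was found in 1.83% of all windows. The letters TATAAA, searched as a TATA box, were found in the Il1b window at -60 and in 14.2% of all windows. The AP-1 motif TGANTCA matched none of the 5 windows and 7.33% of all windows. A match is a description of the letters and not evidence of binding, and the map of motif matches shows the positions.

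**Figure D1:**
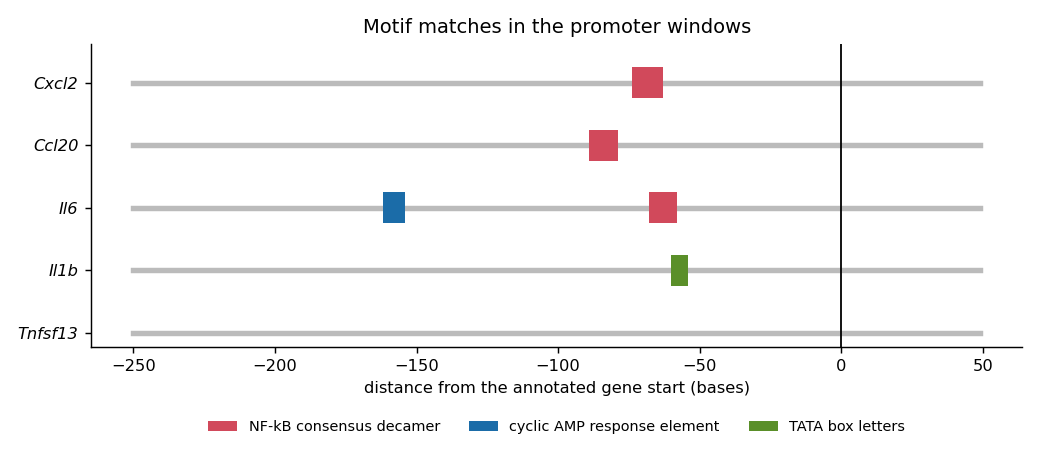
Positions of motif matches in the promoter windows of 5 genes, with the distance from the annotated gene start in bases on the x axis and 1 grey line per gene. Red boxes are matches to the NF-kB consensus decamer, the blue box is the cyclic AMP response element and the green box the TATA letters; the red boxes of Cxcl2, Ccl20 and Il6 begin at -74, -89 and -68, and Tnfsf13 has no box.

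The values below are scaled intensities, the deposited linear intensities after a shift of each array, and a probe set counts as measured on an array where it lies above a floor of 262.9, the level below which 40% of values lay. Of the 13 probe sets, 8 were above the floor on all 3 arrays, 1 on 2 arrays and 4 on none. Cxcl2, on its single probe set U45965_at, had 382.6, 1211 and 1147 at 0.0 h, 0.1 h and 1.0 h. It was thus low on the 0.0 h array and nearly level between the later arrays. Ccl20, a chemokine that recruits dendritic cells and lymphocytes through the receptor Ccr6, had 437.1, 905.9 and 838.4 on AF053312_s_at, the same order of arrays as Cxcl2.

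Ccl2, the chief monocyte attractant among the CC chemokines, was read by 2 probe sets made from the same GenBank entry. At 0.0 h, 0.1 h and 1.0 h, X17053mRNA_s_at had 13023, 17367 and 26216, and X17053cds_s_at had 1938, 2831 and 4095. Both were lowest at 0.0 h and highest at 1.0 h, but they share their source sequence and are not independent readings. Ccl3, a macrophage inflammatory chemokine, was below the floor on every array with 61.9, 93.1 and 65.5, so no order of its values was read.

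Il6 was measured by M26744_at, with 454, 933.8 and 1095 at the 3 labels in turn. The other Il6 probe set, M26745cds_s_at, stayed below the floor with 171.7, 45.6 and 223.2. Only 1 of the 2 Il6 probe sets therefore carries its pattern of a low 0.0 h value and higher later ones. Il1b, a cytokine released by macrophages after cleavage by caspase-1, had 686.9, 987.6 and 633.3 on M98820_at, highest on the 0.1 h array. Its other 2 probe sets, M98820_g_at and E01884cds_s_at, did not pass the floor on any array, with highest values of 255.0 and 134.2.

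Tnfsf13 ran the other way. Its probe set rc_AA891690_g_at had 3376, 2142 and 887.7 at the labels in turn, lower on each later label. On rc_AA800814_at it had 1713, 933.8 and 1083, so both later arrays were below 0.0 h but the lowest was 0.1 h. The third, rc_AA891690_at, shares its source sequence with the first and was dim, with 280.0 and 281.3 at 0.0 h and 0.1 h and 154.4, below the floor, at 1.0 h. Tnfsf13 was thus lower at 1.0 h than at 0.0 h on rc_AA891690_g_at and rc_AA800814_at, by different amounts, as the plot of intensities by time label shows. For rc_AA891690_at there is only a bound, at least 1.06-fold lower at 1.0 h than at 0.0 h. In RNA of whole tissue, fewer cells of a type and less RNA per cell cannot be told apart.

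**Figure D2:**
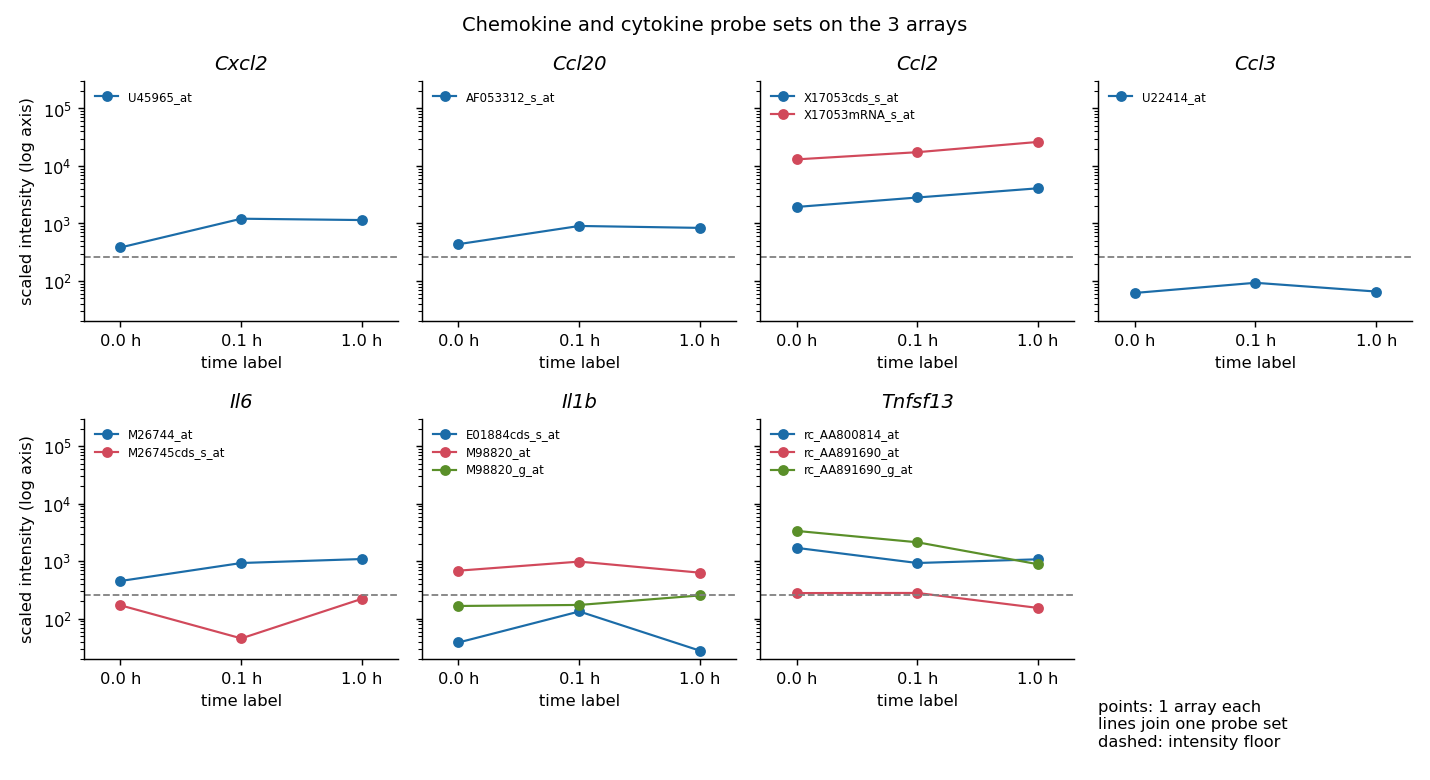
Scaled intensity on a log axis against the time label for each probe set of the 7 genes, 1 point per array, with the floor of 262.9 as a dashed line. Cxcl2 lies at 382.6 at 0.0 h and at 1211 and 1147 on the later arrays, Ccl2 is highest at 1.0 h on both probe sets, and Ccl3 stays below the floor. The points of all 3 probe sets of Tnfsf13 lie lower at 1.0 h than at 0.0 h, with 1 of them below the floor at 1.0 h.

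The first later label, 0.1 h, was set against 0.0 h. Cxcl2 was 3.17-fold higher on the 0.1 h array than on the 0.0 h array, Ccl20 2.07-fold and Il6 2.06-fold. Ccl2 was 1.46-fold and 1.33-fold higher on its probe sets and Il1b 1.44-fold higher on its measured probe set. Tnfsf13 was 1.83-fold and 1.58-fold lower on 2 probe sets and level on the dim one, with a log2 difference of 0.01. Counted by probe set, 3 of 9 measured members passed 2-fold upward at 0.1 h and 0 passed it downward, beside 6.2% and 4.34% of the 4743 probe sets measured on both arrays. Because the members were selected on these differences, nothing is read from that gap. The median log2 difference was 0.52 over the 9 members and 0.02 over all measured probe sets. Under spike-in scaling these medians were 0.25 and -0.26. Ccl20 and Il6 lay close to the 2-fold line: their log2 differences of 1.05 and 1.04 became 0.92 and 0.92 with quantile normalisation, 0.97 and 0.97 with cyclic loess normalisation and 0.78 and 0.76 with the arrays made equal on the spike-in probe sets. Cxcl2 stayed above 2-fold under each of these scalings, between 1.39 and 1.66 on the log2 scale.

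The comparison of 1.0 h with 0.0 h uses the same 0.0 h array, so its error enters both sets of differences. At 1.0 h Cxcl2 was 3.00-fold higher than at 0.0 h, Il6 2.41-fold, and Ccl2 2.11-fold and 2.01-fold on its 2 probe sets. Ccl20, 1.92-fold higher, stayed just short of 2-fold. Il1b was nearly level at 1.08-fold lower, and Tnfsf13 was 3.80-fold lower on rc_AA891690_g_at and 1.58-fold lower on rc_AA800814_at. In all, 4 of 8 measured probe sets, from 3 genes, passed 2-fold upward and 1 passed it downward, beside 2.89% and 2.58% of 4775 probe sets. That largest difference of Tnfsf13 was the ninth lowest of the 4775 probe sets, that of Cxcl2 stood at rank 22 from the highest, that of Il6 at rank 58, and those of Ccl2 at ranks 110 and 133. Since the members were selected on such differences, nothing is read from these counts and ranks. The median log2 difference was 0.97 over the 8 members and 0.02 over all measured probe sets. With the 20th percentile floor 11 members were measured and their median was 0.54. For the Ccl2 probe set X17053mRNA_s_at the log2 difference was 0.94, in place of 1.01, under the scaling with a 20th percentile floor, and Ccl20 reached 1.14 under spike-in scaling.

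Set against 0.1 h, the 1.0 h array was higher in Ccl2 and Il6 and slightly lower in Cxcl2 and Ccl20. Ccl2 was 1.51-fold and 1.45-fold higher at 1.0 h than at 0.1 h, and Il6 1.17-fold higher, while Cxcl2 and Ccl20 were 1.06-fold and 1.08-fold lower. Il1b was 1.56-fold lower at 1.0 h. Tnfsf13 was 2.41-fold lower on rc_AA891690_g_at and 1.16-fold higher on rc_AA800814_at, so its probe sets disagreed in direction here. Of 8 measured probe sets, 0 passed 2-fold upward and 1 downward, beside 3.87% and 5.48% of 4833 probe sets, and the median log2 difference of the members was 0.07. It was 0.16 on the values as deposited and 0.54 under spike-in scaling. The spike-in probe sets had a mean log2 difference of -0.47 in this comparison. With that mean made 0, which moved the median over all probe sets to 0.46, both Ccl2 probe sets passed 2-fold, with log2 differences of 1.07 and 1.00, the Cxcl2 and Ccl20 differences turned to 0.39 and 0.36, and the Tnfsf13 difference of -1.27 became -0.80. Cxcl2 also turned on the values as deposited, to 0.01.

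**Figure D3:**
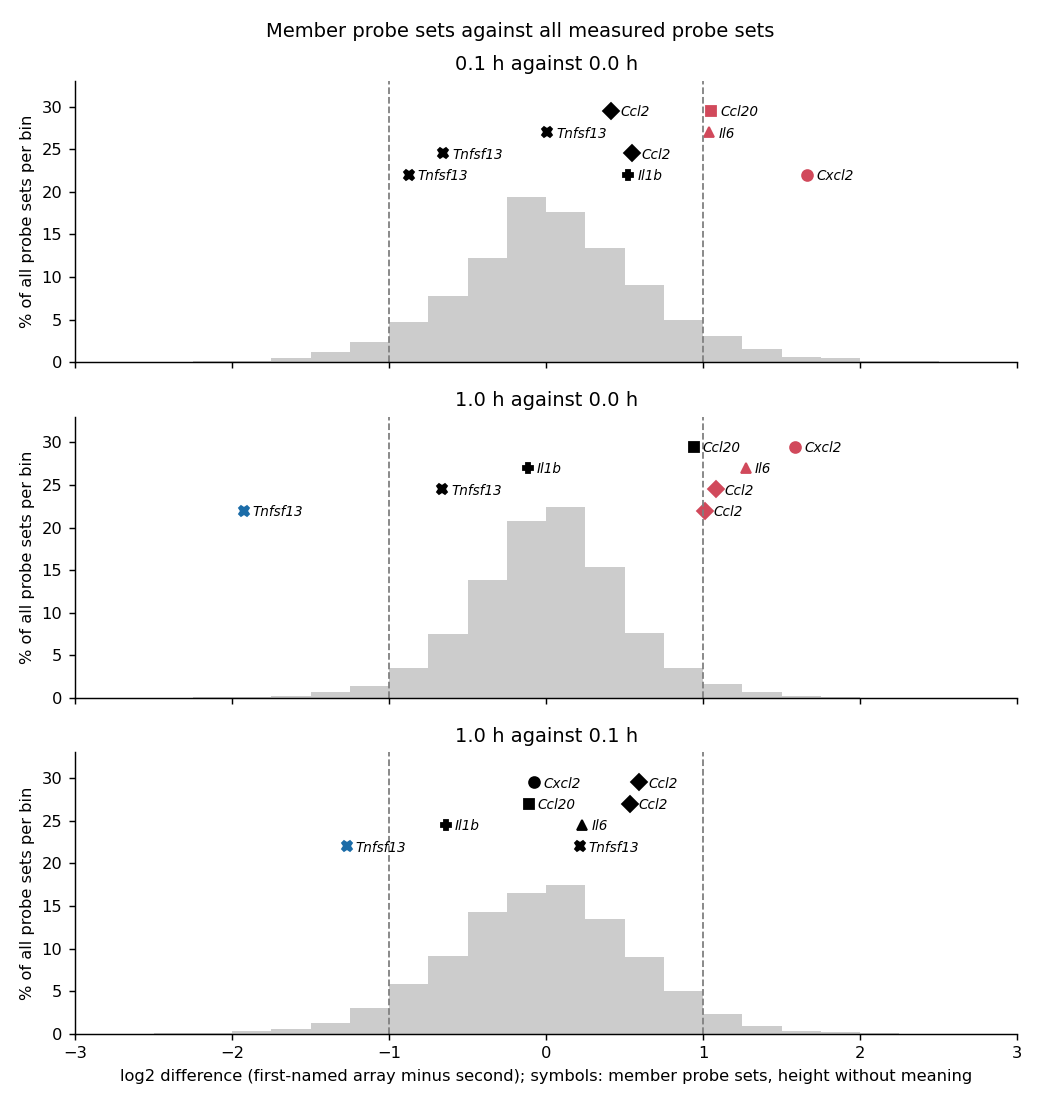
Histograms of the log2 differences of all probe sets measured on both arrays (grey, percent per bin of 0.25) in the 3 comparisons, with each member probe set marked above at its own log2 difference, its height having no meaning and dashed lines at 2-fold. Red symbols are at least 2-fold higher and blue ones at least 2-fold lower; Cxcl2 lies at 1.66 and 1.58 in the comparisons with 0.0 h, and the blue Tnfsf13 symbol at -1.93 and -1.27 in the comparisons of 1.0 h.

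Other ligands, receptors and signalling genes of the same pathways were read from lists, each gene on its brightest probe set. Over all lists, 128 genes had a probe set, and 5 of 65 measured genes passed 2-fold upward and 0 downward at 0.1 h against 0.0 h, beside 5.68% and 4.71% of 2994 genes. At 1.0 h against 0.0 h the counts were 3 higher and 0 lower of 70, beside 2.34% and 2.64% of 3029 genes. At 1.0 h against 0.1 h they were 3 higher and 3 lower of 70, beside 4.04% and 5.06% of 3043 genes, with Cxcl13, Cd40 and Tgfb3 higher and Ier3, Sdc1 and Ackr3 lower. The median log2 differences of the 3 comparisons were 0.10, 0.12 and 0.01, while those over all genes lay between -0.0022 and 0.011. The lists were chosen with earlier results of these data known, so nothing is read from these counts and medians. Beside the list genes that passed 2-fold, some genes close to the members in function are given, most of them named after their values were seen.

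Among 7 measured other chemokines, 1 was at least 2-fold higher at 1.0 h: Cxcl13, which attracts B cells, had 589.3, 645.9 and 1353 at 0.0 h, 0.1 h and 1.0 h. Cxcl10, an interferon-induced attractant of T cells, had 320.1, 392.5 and 629.5, and Ccl4 had 314.3, 329.3 and 483.5, both highest at 1.0 h as Ccl2 was. Cx3cl1, which is held on neurons and endothelium, had 957.7, 1643 and 1381, with the 0.0 h array low as for Cxcl2. Cxcl14 ran down with the label, with 2988, 2362 and 1692, and was 1.77-fold lower at 1.0 h than at 0.0 h, with a log2 difference of -0.22 on its other probe set. Cxcl6, a CXC chemokine as Cxcl2 is, had 567.9, 483.4 and 494.2, with log2 differences of -0.23 and -0.20 against 0.0 h. Cxcl3 was below the floor on each array. The median log2 difference of the list was 0.13 at 0.1 h and 0.55 at 1.0 h, each against 0.0 h.

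Of 25 other interleukin and cytokine genes on the array, 11 were measured in each comparison with 0.0 h and none was at least 2-fold apart, with medians of -0.10 and -0.13. Il18, a relative of Il1b, had 8143, 5863 and 7464 on its brightest probe set and was 1.39-fold lower at 0.1 h than at 0.0 h. Its other probe set, AJ222813_s_at, was higher, with log2 differences of 1.90 at 0.1 h and 1.17 at 1.0 h, so the direction of Il18 depends on the probe set. Mif was level with 6472, 6367 and 6911. Tgfb3 was 2.02-fold higher at 1.0 h than at 0.1 h, but its other probe set had a log2 difference of 0.33 and the mean of both did not pass 2-fold. The 3 other ligands of the tumour necrosis factor superfamily on the array, Tnf, Tnfsf4 and Cd40lg, were all below the floor, and the highest of their values was 166.4.

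Receptors of the members were measured in part. The Cxcl2 receptor gene Cxcr2 was below the floor with at most 155.9, and the Ccl2 receptor gene Ccr2 with at most 51.0. Il6r, the receptor chain that binds Il6, had 1061, 975.3 and 1024 and was level. Il6st, the shared signalling chain gp130, had 430.1, 592.3 and 764.9 and was 1.78-fold higher at 1.0 h than at 0.0 h. Its order of arrays was that of Il6. For Il1b, the accessory chain Il1rap had 949.8, 1076 and 1836, and the decoy receptor Il1r2, which binds the cytokine without signalling, had 247.3, 611.8 and 835.9. Il1r2 was below the floor at 0.0 h, so against the floor it was higher by at least 2.33-fold at 0.1 h and by at least 3.18-fold at 1.0 h.

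Among 10 measured cytokine receptor genes, 1 passed 2-fold upward at 0.1 h and another at 1.0 h, each against 0.0 h. Csf2rb, the common chain of the receptors for Il3, Il5 and Csf2, had 1215 at 0.1 h and 467.6 at 0.0 h, a log2 difference of 1.38, and Cd40, the costimulatory receptor of B cells and macrophages, was 2.81-fold higher at 1.0 h. Tnfrsf1a, the main receptor for Tnf, had 1099, 2174 and 1809 and was 1.98-fold and 1.65-fold higher on the later arrays. Of the chemokine receptors, Ackr3, a scavenger of Cxcl12, had 419.8, 821 and 402.8 at the labels in turn, highest on the 0.1 h array. Ackr3 was 2.04-fold lower at 1.0 h than at 0.1 h, and less than 2-fold lower on the values as deposited and under spike-in scaling. Cxcr1 had 626.0, 1068 and 635.6, also highest at 0.1 h, while Cxcr4 had 7450, 5936 and 5511, highest at 0.0 h. Cxcr4 was 1.35-fold lower at 1.0 h than at 0.0 h, with log2 differences of -0.41 and -1.001 on its other probe sets.

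The NF-kB list had 5 genes on the array. Nfkbia, the inhibitor that NF-kB itself induces, had 206.3, 409.0 and 619.4, with the first value below the floor. It was higher by at least 1.56-fold at 0.1 h and by at least 2.36-fold at 1.0 h. These values rest on its brightest probe set alone, as its other probe set, X63594cds_at, was not measured in any comparison. Nfkb1 had 9622, 6394 and 10590.3, with a log2 difference of -0.59 at 0.1 h against 0.0 h, and Traf2 was nearly level with 998.2, 987.9 and 1119.9. In the JAK-STAT list, which carries the signal of Il6 into the nucleus, Stat5b was 2.18-fold higher at 0.1 h than at 0.0 h, though not past 2-fold under spike-in scaling, while Stat3 had 376.8, 493.0 and 396.6. Stat5a had 619.0, 422.3 and 617.8, lowest at 0.1 h. Cish had 504.5, 207.0 and 170.8, above the floor at 0.0 h alone, and was at least 1.92-fold lower on both later arrays. Jak1 had 206.2, 304.6 and 573.6, below the floor at 0.0 h alone. The list medians against 0.0 h were -0.31 at 0.1 h and 0.16 at 1.0 h. Socs3, the feedback inhibitor of Il6 signalling, was below the floor with 166.6, 158.3 and 184.8. Pias3, an inhibitor of Stat3, had 8593, 6225 and 4329 and was 1.98-fold lower at 1.0 h than at 0.0 h.

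Of genes that process or hold cytokines, Sdc1 and Sdc4, heparan sulphate proteoglycans that bind chemokines at the cell surface, were 2.06-fold and 2.02-fold higher at 0.1 h than at 0.0 h. Of this list, 1 gene passed 2-fold at 0.1 h on the values as deposited and with cyclic loess normalisation, and 0 under spike-in scaling or when the probe sets of each gene were averaged. Casp1, which activates Il1b, had 760.6, 703.7 and 827.3. In the list of acute phase genes and induced targets, 1 of 20 measured genes at 0.1 h and 1 of 21 at 1.0 h was at least 2-fold higher than at 0.0 h, in both cases the cyclooxygenase gene Ptgs2, at 3.39-fold and 2.38-fold. Lcn2, lipocalin 2, which binds bacterial siderophores, was 1.80-fold and 1.90-fold higher, and Icam1, the leukocyte adhesion molecule, 1.74-fold and 1.24-fold. Other genes of this list were lower on both later arrays, with log2 differences of -0.28 and -0.33 for Plau and -0.20 and -0.34 for Lbp. Vcam1 had -0.39 and -0.56, but 0.66 and -0.08 on its other probe set. Sele, Fgb and Fgg were below the floor, and the list medians were 0.29 and 0.13. Ier3 was 2.37-fold lower at 1.0 h than at 0.1 h, while its other probe set had a log2 difference of -0.17, and it did not pass 2-fold under spike-in scaling.

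**Figure D4:**
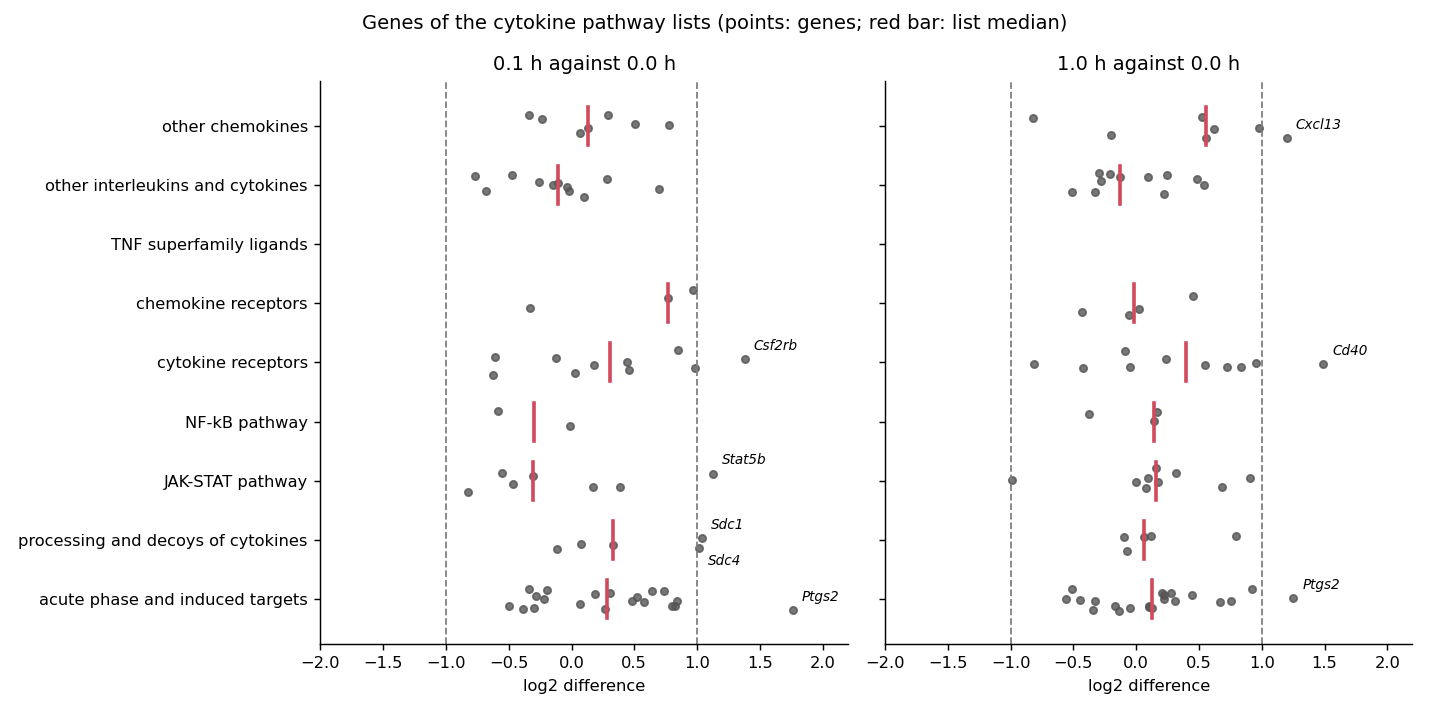
Log2 differences of the genes of 9 lists at 0.1 h (left) and 1.0 h (right) against 0.0 h, 1 point per gene measured on both arrays, with a red bar at each list's median and dashed lines at 2-fold. The points past the right dashed lines are Csf2rb, Stat5b, Sdc1, Sdc4 and Ptgs2 at 0.1 h and Cxcl13, Cd40 and Ptgs2 at 1.0 h, and none lies past the left lines.

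For each measured member, the 3 genes with the most similar course over the 3 arrays were found among 2911 genes, as the smallest Euclidean distance between log2 values centred on each gene's own mean. With 3 arrays such likeness is a description only. The courses were not scaled to equal size, so the number of genes within a distance depends on the size of a member's differences. The members were selected on those differences, so nothing is read from these numbers. Cxcl2 was nearest to Prr13, Ndufb1 and Orai1 at distances of 0.19, 0.19 and 0.20, and 5 genes lay within 0.25 of it. Ccl20 was nearest to C8h11orf54, Arhgap1 and Stat5b. Ccl2 was nearest to Klf6 at 0.02, Oxt at 0.07 and Cxcl10 at 0.09. Il6 was nearest to Oas1a at 0.06, Kcnj8 at 0.08 and Irs2 at 0.09, with 23 genes within 0.25. Il1b, whose differences were smaller, had 255 genes within 0.25, with Slc25a4, Syp and Ndufa3 nearest. Tnfsf13, on rc_AA891690_g_at, was nearest to Mtch2 at 0.10, Mboat7 at 0.15 and Pggt1b at 0.22, with 5 genes within 0.25.

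Of the markers of the labelled tissues, all 5 pineal genes on the array were measured on the later arrays, among them Tph1 and Asmt, while the chromaffin genes Th, Dbh and Slc18a1 and all 3 adrenal cortex genes were below the floor on each array. Other genes of the chromaffin marker list, Pnmt, Chgb and Scg2, were above it, and which tissue each sample holds was not tested. Of 13 macrophage and leukocyte markers, 8, 8 and 7 were above the floor at 0.0 h, 0.1 h and 1.0 h, and their summed scaled intensity was 6838, 9583 and 9108. The pan-leukocyte gene Ptprc had 285.5, 722.9 and 503.3, and Coro1a, which binds actin in leukocytes, had 451.0, 919.0 and 1850.3, both lowest on the 0.0 h array as Cxcl2, Ccl2 and Il6 were. Cd14 (1616, 2535 and 1886) and Lyz2 (2020, 3065 and 2448) were also lowest at 0.0 h. So was Aif1 (184.2, 428.1 and 471.4), whose 0.0 h value was below the floor. Other markers of that list had other orders. Cd4 had 375.7, 366.6 and 39.5 and Cd79b 268.8, 64.3 and 58.3, both highest at 0.0 h, while Cd74 (541.6, 400.8 and 806.6) and Fcgr2b (630.9, 563.3 and 670.1) were lowest at 0.1 h. The defining markers Itgam, Csf1r, Cd3d and Cd8a were below the floor on all 3 arrays, as were the neutrophil genes S100a8 and S100a9. Of 5 glial markers 4 were above the floor on each array, with sums of 16591, 23155 and 21090.5. The largest part of these sums was Vim, with 12076, 16561 and 15693. Vim and S100b, which had 1335, 3665 and 2357, had the order of arrays of Cxcl2. Slc1a2 (1500, 1457 and 1365) and Slc1a3 (1654, 1423 and 1619) were highest at 0.0 h, and Aqp4 was below the floor. The pineal genes had no shared direction against 0.0 h. At 0.1 h and 1.0 h in turn, the log2 differences were 1.27 and 0.67 for Asmt and 0.25 and -1.09 for Pdc. They were -0.38 and 0.04 for Tph1 and 0.10 and -0.19 for Sag. Aanat had 253.0, 400.8 and 506.0 at the labels in turn, with the 0.0 h value below the floor. The 3′ to 5′ intensity ratio of the beta-actin control, a sign of RNA breakdown, was 10.4, 17.8 and 44.4, and that of GAPDH 15.3, 18.6 and 14.1. The part of leukocyte, glial and pineal cell content and of RNA quality in the member differences was not tested.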

How the data were processed

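Each of the 3 rat RNA samples had 1 Affymetrix array. The authors deposited a linear intensity for every probe set. How it was summarised and corrected for background was not stated. With the top and bottom 2% of values left out, the deposited intensity columns averaged 2503.7, 2503.9 and 2503.7, which would follow from scaling before deposit. Of 8799 probe sets, 59 were controls. Genes were named through the platform's annotation: 7006 other probe sets had 1 symbol, 308 several and 1426 none, and 6985 matched a RefSeq gene table of GRCr8 by gene ID, which changed 0 symbols.

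After log2, each array was set to the median, a floor was put at the 40th percentile, and a second shift made the medians of probe sets that passed it everywhere equal (in total by 0.0079, 0.042 and -0.050). Differences were taken where both arrays lay above the floor, and 2-fold was the size counted. Where only 1 did, its value over the floor is given as a bound. Alternatives were the deposited values, quantile and cyclic loess normalisation (limma 3.58.1, R 4.3.3), scaling to 9 spike-in probe sets, floors at the 20th and 60th percentiles, and for lists the mean of a gene's probe sets. Python 3.11.15, numpy 2.4.6 and pandas 2.3.3 were used. List genes were named if past 2-fold (at most 4 a direction), else as the 2 brightest of the list. Likeness used the 3 nearest genes. Other list genes were named after their values were seen, mostly as receptors or partners of the members. The members and lists were chosen with earlier results of these data known.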

Additional observations from a re-analysis of the deposited data

Results flagged for a closer look

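Il1b, on its measured probe set M98820_at, was higher at 0.1 h and lower at 1.0 h than on the shared 0.0 h array, with log2 differences of 0.52 and -0.12. It is listed because the later arrays lay on opposite sides of the 0.0 h array, with 1 array per label, and the difference between them was not tested. Under spike-in scaling the 1.0 h difference was 0.08.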

How the results depend on the processing

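No paired analysis was possible because each label has 1 array, and no array could be left out. Member probe sets at least 2-fold higher at 0.1 h than at 0.0 h numbered 3, and 1 with quantile normalisation, cyclic loess normalisation, spike-in scaling or the floor at the 20th percentile; Cxcl2 was then the 1. The 60th percentile floor gave 0 of 4 measured, since Cxcl2, Ccl20 and Il6 were below that floor at 0.0 h, and the median log2 difference was -0.12. Spike-in scaling gave 1 member at least 2-fold lower at 0.1 h, in place of 0. At 1.0 h against 0.0 h the floor at the 60th percentile gave 2 higher members, both of Ccl2, in place of 4, and a median of 0.20. At 1.0 h against 0.1 h spike-in scaling gave 2 higher and 0 lower members, in place of 0 and 1. For the pathway lists, the 5 higher genes at 0.1 h against 0.0 h became 2 with spike-in scaling and 2 with the 60th percentile floor, and the 0 lower genes became 2 with spike-in scaling and 3 with the 20th percentile floor. The 3 higher genes at 1.0 h against 0.0 h became 5 as deposited, 8 with spike-in scaling, 8 with the 20th percentile floor and 0 with the 60th, and the 0 lower became 4 with the 20th. At 1.0 h against 0.1 h the 3 higher genes became 5 as deposited, 12 with spike-in scaling and 8 with the 20th percentile floor, and the 3 lower became 0 with spike-in scaling and 1 with the 60th percentile floor. Spike-in scaling moved the median of all probe sets to -0.26, 0.22 and 0.46 in the 3 comparisons, and the higher and lower probe sets to 134 and 462, 261 and 63, and 799 and 60. The floors change how many probe sets are measured; otherwise the cause was not tested.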

Other observations

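Some genes of the pathway lists were above the floor on part of the arrays. Il1a, the sister cytokine of Il1b, had 416.7, 224.9 and 604.8 at 0.0 h, 0.1 h and 1.0 h, and the endotoxin receptor gene Tlr4 had 416.4, 74.6 and 320.3, so both were below the floor on the 0.1 h array alone. Ccr1, Nos2, Ptpn11 and Stat6 shared that pattern on their brightest probe sets, which held for 6 of 128 list genes (4.69%) and for 2.36% of all 4736 genes. Nos2 did so on that probe set alone: S71597_s_at and U16359cds_at were above the floor at 0.1 h, with log2 differences of 0.60 and 0.93 against 0.0 h. Il1r2, Il9r, Jak1, Mmp9, Nfkbia and Plaur were below the floor at 0.0 h alone, 4.69% of the list genes beside 2.66% of all genes. Il10, an anti-inflammatory cytokine, was above the floor at 1.0 h alone with 482.2, as were Il1r1, Il1rl2, Jak3 and Map3k8, 3.91% of the list genes beside 3.00% of all genes. Cish, Il3, Il9, Lif and Orm1 were above the floor at 0.0 h alone, also 3.91% of the list genes, beside 2.05% of all genes. Of the list genes, 30.5% were below the floor on all 3 arrays, against 23.9% of all genes. With 1 array per label these shares carry no test.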
